A study of Homo sapiens with 118 samples.

Results

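Epithelial-mesenchymal transition is the change in which epithelial cells give up their cell-cell junctions and take on the shape and motility of mesenchymal cells. The transcription factors Snail (SNAI1), Slug (SNAI2), TWIST1, ZEB1 and ZEB2 bind E-box motifs in the promoters of junction genes and repress them, in part by recruiting corepressor complexes that hold histone deacetylases. E-cadherin (CDH1) and the tight junction proteins ZO-1 (TJP1) and occludin (OCLN) are the epithelial side of the change, and N-cadherin (CDH2) and vimentin (VIM) its mesenchymal side. Hepatocytes differ from most epithelia in that they carry both E-cadherin and N-cadherin at their lateral membranes.

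The rows of these 10 genes were taken from a count table of 22068 probes that name 19470 gene symbols, by the gene symbol alone. The genes themselves were chosen with earlier results of these data known. They were 14 rows, since VIM, SNAI1, SNAI2 and TWIST1 each had 2 probes and the other 6 genes had 1. Probes are named here as deposited, by symbol and probe number, and each probe reads a different short stretch of its transcript. Levels were therefore compared between libraries and never between probes.

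The cells were HepaRG, an established human hepatic cell line from a liver tumour that was thawed in its differentiated state, so every group rests on the same line. In all groups the cells had been treated for 72 h, with the chemical renewed daily, by 1 of 8 inhibitors of histone deacetylases, the enzymes that take acetyl groups off histones and other proteins. Each inhibitor had 5 concentrations, from C1, the lowest, to C5, the highest. Each of the 40 groups of 1 chemical at 1 concentration had 3 libraries from HepaRG batches 1, 2 and 3, except that panobinostat C3 and trichostatin A C4 had 2, without batch 3. Whether the batches were separate cultures beyond the batch number is not given in the labels, so the p-values measure the spread between the libraries that entered each fit. Solvent-treated cells were not analysed here, and each comparison was made against C1 of its own chemical.

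By structure, panobinostat, scriptaid, trichostatin A and vorinostat are hydroxamic acids, mocetinostat and tacedinaline are benzamides, apicidin is a cyclic tetrapeptide and valproic acid is a branched carboxylic acid. C1 and C5 were 0.041722 and 0.86 µM for apicidin, 0.177222 and 3.9 µM for mocetinostat, 0.001468 and 0.084 µM for panobinostat and 4.94 and 94.5 µM for scriptaid. They were 1.143333 and 44 µM for tacedinaline, 0.018811 and 1.5237 µM for trichostatin A and 0.404778 and 23.5 µM for vorinostat. The unit of the valproic acid concentrations is open, because labels and protocol give different numbers in the same unit, and they are not printed. The concentrations differed between chemicals, so their values stand side by side and were not compared at a matched dose.

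An E-box that Snail and ZEB factors are known to bind reads CACCTG, or CAGGTG on the other strand. It lies in the promoters of both tight junction genes of the set, OCLN and TJP1, of which the first fell in most chemicals and the second in none, and these are shown for that reason. They are the 250 bases before the first listed start site, 5′ to 3′ on the strand of the gene, from RefSeq on build GRCh38.p14, with the motif in capitals. That of OCLN spans chr5:69492297-69492546 on the + strand, with the motif 33 bases before the start site, and that of TJP1 spans chr15:29969050-29969299 on the - strand, with the motif 88 bases before it.
OCLN: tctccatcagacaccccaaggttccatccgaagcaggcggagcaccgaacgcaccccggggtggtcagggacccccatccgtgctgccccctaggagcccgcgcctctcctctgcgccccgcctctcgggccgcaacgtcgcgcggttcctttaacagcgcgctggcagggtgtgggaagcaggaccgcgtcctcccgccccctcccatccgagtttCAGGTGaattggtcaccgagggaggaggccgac
TJP1: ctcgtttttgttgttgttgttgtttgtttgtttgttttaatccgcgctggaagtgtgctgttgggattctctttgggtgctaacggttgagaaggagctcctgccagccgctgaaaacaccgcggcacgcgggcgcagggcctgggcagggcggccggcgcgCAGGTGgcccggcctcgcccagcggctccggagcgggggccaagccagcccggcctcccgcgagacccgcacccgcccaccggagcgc
The motif, searched on both strands, stood in 17.5% of all 35116 promoters of the table (6143), and in 5 of the 17 listed promoters of the 6 member genes with an entry (CDH2, OCLN, TJP1, VIM, ZEB1 and ZEB2). CDH1, SNAI1, SNAI2 and TWIST1 had no entry. A match is a description of the sequence and not a measured binding site.

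Total counts per library lay between 1061359 and 5250260 (median 3702007). They were lowest at vorinostat C5, where the 3 libraries held 1061359 to 1879287 counts against 1785295 to 4134455 at C1. The labelled cell type was borne out by hepatocyte genes: the probe of albumin had a median of 22372 CPM (counts scaled to a common library size with TMM factors) over the C1 libraries. Probes of other cell types were detected too. Of 7 biliary probes 5 had a median above 0 counts, the highest being KRT19_10816 at 130.5, SOX9 at 103 and SPP1 at 57.5 counts, and CFTR and KRT7_3703 had a median of 0. Of 10 fibroblast and stellate probes 8 had a median above 0, led by LUM at 288.5, PDGFRB at 104 and ACTA2 at 86 counts, and COL1A2 and COL3A1_26690 had a median of 0. The leukocyte gene PTPRC was at 0 in all 118 libraries.

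Some libraries stood apart. The standard deviation over 11626 features of the log2 difference of a library from the other libraries of its group had a median of 0.569, and was highest in scriptaid C4 batch 3 (1.63), mocetinostat C2 batch 3 (1.25), whose partners in the group are named below, and trichostatin A C1 batch 3 (1.09). In the first of these CDH2 stood at 845 CPM against 183 and 192 CPM in the other libraries of the group. In the third the SNAI2 probes stood at 550 and 805 CPM against 154 to 198 CPM, and the summed level of 7 hepatocyte probes was 11882 CPM. In 6 further libraries the 2 SNAI2 probes differed by more than 3-fold in counts. They were apicidin C4 batch 1, mocetinostat C2 batches 1 and 2 and C3 batch 1, panobinostat C2 batch 2 and valproic acid C4 batch 3, and of the features with a median of at least 50 CPM in the other libraries of the chemical, 94 to 558 (median 130) stood more than 4-fold below it there, against 0 to 367 (median 4) in the other 112 libraries. Results that rest on these libraries are given with and without them. The rules that leave out the 6 libraries or scriptaid C4 batch 3 were chosen after seeing the data.

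Of the 14 rows, 9 rows of 7 genes (CDH1, CDH2, OCLN, TJP1, SNAI2, TWIST1 and ZEB2) passed the filter on low counts in all 8 chemicals. VIM_18185 passed it in 2 chemicals and SNAI1_24734 in 1, and VIM_7657, SNAI1_6602 and ZEB1_7834 in none. Each chemical was fitted on its own with edgeR, and a probe is said to have risen or fallen where the Benjamini-Hochberg adjusted p-value over all features tested was under 0.05 and the fold change at least 1.5. Where groups are said not to overlap, this only describes their 2 or 3 libraries. The share of all features without overlap is not given here, so non-overlap adds no support to a call.

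Across the set, the epithelial genes CDH1 and OCLN and the mesenchymal regulator TWIST1 were lower at C5 than at C1 in most chemicals, and CDH2 was higher. TJP1, also an epithelial gene, had a positive change in all 8 chemicals and no call. Of the TWIST1 probes only TWIST1_7416 was called at C5. Over the 8 chemicals, 75 tests of member probes at C5 gave 6 that rose (8%) and 20 that fell (26.7%). Over all features, 101732 tests gave 11.6% that rose and 13.4% that fell.

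The counts differed between chemicals, as did the share of all features called. With apicidin 2 of 9 probes rose, where 13.8% of all features rose, and 3 fell, where 15% fell. With mocetinostat 1 of 11 rose (14.8% of all features) and 4 fell (15.7%). With panobinostat 1 of 10 rose (6.77%) and 2 fell (9.46%). These chemicals shared the rise of CDH2 and the fall of OCLN and TWIST1_7416.
With scriptaid none of 9 rose (12.8%) and 2 fell (17%), with tacedinaline 1 rose (18.7%) and 3 fell (20.1%), and with valproic acid 1 rose (4.84%) and 1 fell (6.22%). With vorinostat none of 9 rose (22.7%) and 5 fell (24.9%). The falls under vorinostat were those of CDH1, OCLN, SNAI2_24257, TWIST1_7416 and ZEB2.

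With trichostatin A no member was called at C5. In that chemical edgeR called 0% of 12993 features as rising and 0.0154% (2 features) as falling, with 1255 at an unadjusted p under 0.05, and DESeq2 called 43. Of the 9 member probes, CDH2_25558, SNAI2_24257 and SNAI2_6603 had an unadjusted edgeR p under 0.05 (adjusted p 0.389 to 0.482), and DESeq2 called none. Without C1 batch 3, the library with the high SNAI2 counts, no member was called either. The changes of SNAI2_24257 and SNAI2_6603 were then 0.04 and 0.08 in log2 (edgeR adjusted p = 0.958 and 0.913), against -0.82 and -0.96 with it.

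**Figure D1:**
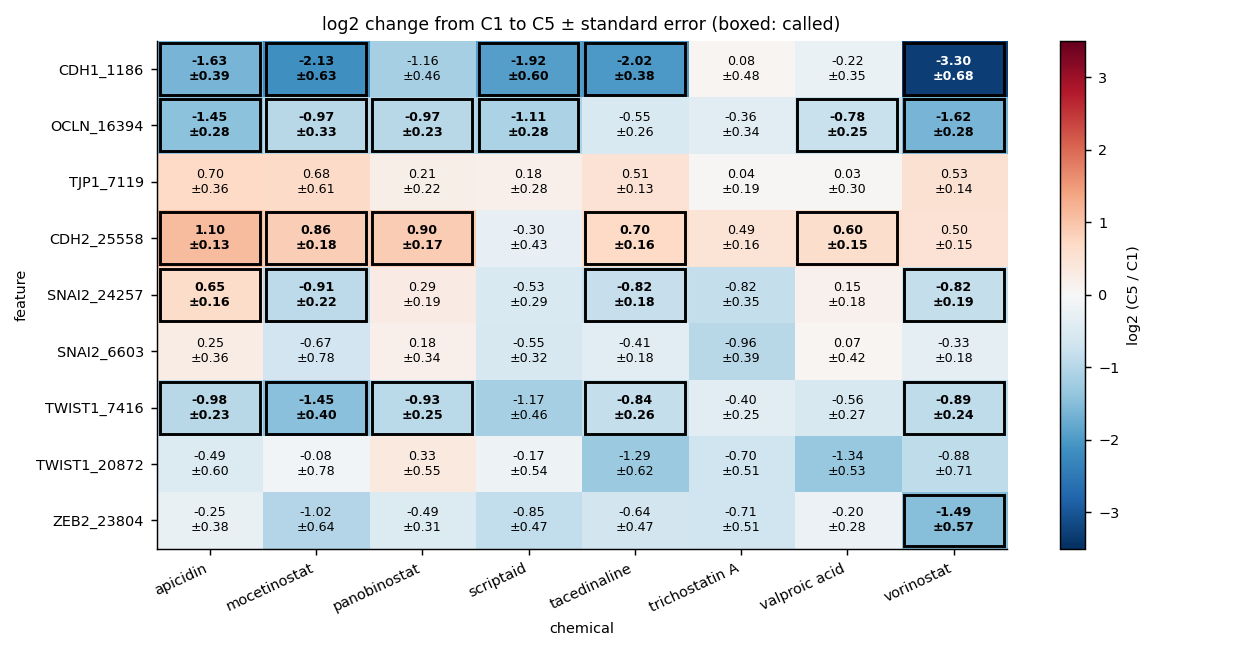
Colour grid of the log2 change from C1 to C5 ± standard error for the 9 member probes tested in all chemicals (rows) in each of the 8 chemicals (columns), red for higher and blue for lower at C5, with boxes around those that rose or fell. CDH2 is red in 7 chemicals and OCLN, TWIST1_7416 and ZEB2 are blue in all 8. The grid includes trichostatin A C1 batch 3, without which the ZEB2 change with trichostatin A is 0.21.

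CDH1 encodes E-cadherin, the calcium-dependent adhesion protein of adherens junctions. Its probe fell at C5 with apicidin, mocetinostat, scriptaid, tacedinaline and vorinostat, by 3.10- to 9.82-fold, and did not pass the test with panobinostat, trichostatin A and valproic acid. With vorinostat the 3 libraries went from 17.2, 23.1 and 13.1 CPM at C1 to 3.27, 0 and 2.34 CPM at C5. These C5 values were 4, 0 and 4 counts, and a count of 0 still allows up to 3, so the fold of 9.82 (log2 change -3.30 ± 0.68 SE, edgeR adjusted p = 0.000131) is a rough one. With tacedinaline the C1 libraries had 30.8, 29.5 and 30.0 CPM and the C5 libraries 2.00, 10.7 and 7.83 CPM. Every C5 library thus lay below every C1 library, and the log2 change was -2.02 ± 0.38 (edgeR adjusted p = 2.4e-05). Mocetinostat, the other benzamide, took CDH1 from 28.4, 26.8 and 43.2 CPM to 11.2, 1.81 and 8.26 CPM, a log2 change of -2.13 ± 0.63 (edgeR adjusted p = 0.0171).
In apicidin the levels were 24.8, 14.9 and 21.3 CPM at C1 and 5.00, 6.11 and 8.44 CPM at C5 (log2 change -1.63 ± 0.39, edgeR adjusted p = 0.00332). In scriptaid they were 24.6, 16.5 and 21.8 CPM and 3.82, 5.39 and 6.77 CPM (-1.92 ± 0.60, edgeR adjusted p = 0.0212). The C1 and C5 libraries did not overlap in any of these 5 chemicals, which by itself means that each batch went down.

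The 3 chemicals without a call on CDH1 were not alike. With panobinostat the libraries went from 15.2, 20.1 and 19.8 CPM to 7.26, 11.5 and 5.78 CPM without overlap, a log2 change of -1.16 ± 0.46 (edgeR adjusted p = 0.084). With valproic acid the levels were 12.2, 12.7 and 20.3 CPM at C1 and 13.5, 9.75 and 15.5 CPM at C5, and the 95% interval of the log2 change ran from -0.91 to 0.46. The groups overlapped there. With trichostatin A the levels were 11.2, 6.12 and 3.59 CPM at C1 and 5.82, 5.71 and 10.7 CPM at C5, and the C3 libraries, at 26.8, 26.8 and 15.4 CPM, lay above both. Its C1 level was the lowest of the 8 chemicals in mean (6.95 ± 3.85 CPM, SD, n = 3, against 15.1 to 32.8 CPM), and the batch 3 library of that group is the one with the low hepatocyte sum.

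Some CDH1 calls did not pass in fits without 1 batch, which hold fewer libraries. Without batch 1 the fall was -1.30 with apicidin (edgeR adjusted p = 0.0571) and -1.63 with scriptaid (adjusted p = 0.174), and without batch 2 it was -1.80 with mocetinostat (adjusted p = 0.146) and -2.09 with scriptaid (adjusted p = 0.107). Without scriptaid C4 batch 3, where CDH1 stood at 49.7 CPM, the scriptaid change was -1.94 (adjusted p = 0.000308), and without panobinostat C2 batch 2 panobinostat was called too, at -1.16 (adjusted p = 0.019), as it was without all of batch 2 (-1.41, adjusted p = 0.0385). The highest CDH1 levels of all, 89.9 and 100 CPM, were those of mocetinostat C2 batches 1 and 2, which are libraries with unequal SNAI2 probes, against 21.5 CPM in batch 3.

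CDH2 encodes N-cadherin, the cadherin of neural and mesenchymal cells that hepatocytes also carry. Its probe had 151 to 1723 counts in every library, and rose at C5 in 5 chemicals by 1.52- to 2.14-fold. With apicidin the libraries went from 201, 187 and 195 CPM to 443, 371 and 428 CPM (log2 change 1.10 ± 0.13, edgeR adjusted p = 2.63e-06). With panobinostat they went from 180, 162 and 147 CPM to 334, 306 and 278 CPM (0.90 ± 0.17, adjusted p = 0.000586). In both chemicals the rise went on over the concentrations, with group means at C4 between those at C3 and C5.
With mocetinostat the C5 libraries had 267, 270 and 245 CPM against 151, 169 and 134 CPM at C1, a log2 change of 0.86 ± 0.18 (edgeR adjusted p = 0.0017). With tacedinaline they had 206, 228 and 185 CPM against 126, 159 and 110 CPM (0.70 ± 0.16, adjusted p = 0.00028). Both benzamides had their CDH2 maximum below C5. With mocetinostat the C3 libraries stood at 346, 333 and 335 CPM (log2 change from C1 1.18 ± 0.18, edgeR adjusted p = 0.000403), and with tacedinaline the C3 change was 0.77 ± 0.16 (adjusted p = 0.000365).

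With valproic acid CDH2 went from 181, 152 and 141 CPM to 264, 230 and 230 CPM (log2 change 0.60 ± 0.15, edgeR adjusted p = 0.0103), just past the fold limit. Vorinostat lay just inside it at C5, with 128, 163 and 134 CPM against 191, 169 and 205 CPM (0.50 ± 0.15, adjusted p = 0.00686), but rose by 0.83 ± 0.15 at C4, where the libraries had 260, 234 and 245 CPM (adjusted p = 5.22e-05). In trichostatin A the C5 libraries (247, 232 and 175 CPM) all lay above the C1 libraries (168, 147 and 160 CPM) without passing the adjusted test (0.49 ± 0.16, adjusted p = 0.389). Scriptaid was the only chemical with a lower CDH2 level at C5, with 136, 149 and 175 CPM at C1 and 133, 118 and 110 CPM at C5, and the difference did not pass the test (-0.30 ± 0.43, adjusted p = 0.633, and -0.32, adjusted p = 0.153, without C4 batch 3).
The valproic acid rise was lost without any 1 batch, at 0.64 without batch 1 (edgeR adjusted p = 0.0923), 0.62 without batch 2 (adjusted p = 0.0897) and 0.55 without batch 3, which is under the fold limit. That of mocetinostat was 0.91 without batch 2 (adjusted p = 0.0592), and vorinostat passed the fold limit without batch 2 (0.70, adjusted p = 0.00521).

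OCLN encodes occludin, a membrane protein that seals tight junctions, which in liver close off the bile canaliculi. It had the most calls of the 14 rows: it fell at C5 in 6 of 8 chemicals, by 1.72- to 3.07-fold, and its change was negative in all 8. With vorinostat the libraries went from 48.2, 68.5 and 80.3 CPM to 21.3, 13.8 and 25.7 CPM (log2 change -1.62 ± 0.28, edgeR adjusted p = 1.48e-05). With apicidin they went from 61.4, 45.8 and 50.3 CPM to 15.3, 23.2 and 18.9 CPM (-1.45 ± 0.28, adjusted p = 0.000415). With scriptaid they went from 54.1, 61.1 and 64.3 CPM to 23.4, 32.7 and 24.2 CPM (-1.11 ± 0.28, adjusted p = 0.00613). No C5 library reached the level of a C1 library in these 3 chemicals, and the scriptaid C4 libraries lay lower still, at 15.5, 16.4 and 15.9 CPM (-1.89 ± 0.30 from C1, adjusted p = 0.000973).
Panobinostat lowered OCLN from 56.4, 51.4 and 51.1 CPM to 31.0, 26.2 and 24.8 CPM (log2 change -0.97 ± 0.23, edgeR adjusted p = 0.00567). The corresponding levels were 29.4, 54.0 and 44.3 CPM and 11.5, 24.5 and 26.0 CPM for mocetinostat (-0.97 ± 0.33, adjusted p = 0.0317). For valproic acid they were 40.8, 37.0 and 50.0 CPM and 24.9, 17.8 and 31.9 CPM (-0.78 ± 0.25, adjusted p = 0.0449). The groups did not overlap in these 3 either. With tacedinaline the 3 C5 libraries (32.5, 40.7 and 41.2 CPM) lay below those at C1 (67.5, 65.8 and 43.0 CPM), but the change of -0.55 ± 0.26 did not pass (adjusted p = 0.0841), and with trichostatin A the groups overlapped (-0.36 ± 0.34, adjusted p = 0.786). That overlap came from C1 batch 3, at 17.9 CPM. Without it the trichostatin A change was -0.72 and did not pass either (edgeR adjusted p = 0.241).

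The OCLN falls of smaller size did not pass in some of the fits without 1 batch, which hold fewer libraries. Without batch 1 the adjusted edgeR p was 0.0644 for mocetinostat (log2 change -0.94), 0.0639 for panobinostat (-1.03), 0.0884 for scriptaid (-1.11) and 0.300 for valproic acid (-0.81). Without batch 2 it was 0.226 for mocetinostat (-0.91), 0.0524 for scriptaid (-1.27) and 0.188 for valproic acid (-0.67), and without batch 3 it was 0.0683 for mocetinostat (-1.15), 0.088 for panobinostat (-0.92) and 0.0517 for valproic acid (-0.87). Those of apicidin and vorinostat passed without any 1 batch, and tacedinaline passed without batch 3 (-0.82, adjusted p = 0.0291).

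TJP1 encodes ZO-1, the scaffold that ties occludin and claudins to actin. Its probe did not rise or fall by the call rule in any chemical, and its C5 change was positive in all 8 (0.03 to 0.70 in log2). With tacedinaline the libraries went from 278, 332 and 279 CPM to 427, 428 and 366 CPM (0.51 ± 0.13, edgeR adjusted p = 0.00154) and with vorinostat from 297, 333 and 300 CPM to 361, 430 and 458 CPM (0.53 ± 0.14, adjusted p = 0.00201), both under the fold limit of 1.5. The largest changes were those of apicidin, from 181, 221 and 235 CPM to 337, 333 and 358 CPM (0.70 ± 0.36, adjusted p = 0.151), and mocetinostat, from 164, 234 and 176 CPM to 275, 320 and 282 CPM (0.68 ± 0.61, adjusted p = 0.433). The groups did not overlap in these 4 chemicals.
Both of the latter fits held libraries with unequal SNAI2 probes. In these TJP1 stood at 53.1 CPM in apicidin C4 batch 1 against 327 and 297 CPM in batches 2 and 3, and at 9.90 and 59.9 CPM in mocetinostat C2 batches 1 and 2 against 211 CPM in batch 3. Without them TJP1 rose at C5 with apicidin (0.69, edgeR adjusted p = 4.21e-05) and mocetinostat (0.61, adjusted p = 0.00158), and with apicidin it did so without all of batch 1 (0.61, adjusted p = 0.0042).

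SNAI2, or Slug, is a zinc finger repressor of E-cadherin, and both of its probes had at least 41 counts in every library. Its probe SNAI2_24257 moved in both directions. With apicidin it rose from 128, 99.5 and 110 CPM to 144, 191 and 191 CPM (log2 change 0.65 ± 0.16, edgeR adjusted p = 0.00412), and stood higher still at C3, with 205, 181 and 188 CPM (0.77 ± 0.16, adjusted p = 0.00205). With mocetinostat it fell from 132, 143 and 120 CPM to 73.5, 75.3 and 51.1 CPM (-0.91 ± 0.22, adjusted p = 0.00498). With tacedinaline it fell from 133, 128 and 122 CPM to 53.0, 79.7 and 75.1 CPM (-0.82 ± 0.18, adjusted p = 0.000216). The groups did not overlap in any of these 3 chemicals.
With vorinostat SNAI2_24257 fell from 153, 162 and 104 CPM to 73.6, 73.2 and 74.3 CPM (-0.82 ± 0.19, edgeR adjusted p = 0.000503), while at C4 it still stood at 146, 148 and 166 CPM. With scriptaid the C5 libraries lay below all C1 libraries too (84.5, 109 and 80.2 CPM against 125, 157 and 125 CPM), without passing the test (-0.53 ± 0.29, adjusted p = 0.18). The C3 libraries of scriptaid lay above C1, at 201, 304 and 191 CPM. Panobinostat and valproic acid had overlapping groups and changes of 0.29 ± 0.19 (adjusted p = 0.338) and 0.15 ± 0.18 (adjusted p = 0.701). The apicidin rise was lost without batch 2 (0.49, adjusted p = 0.131) or batch 3 (0.55, adjusted p = 0.122), and the mocetinostat fall without batch 2 (-0.95, adjusted p = 0.0815).

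The second probe, SNAI2_6603, was called in no chemical at C5. Its changes had the same sign as those of SNAI2_24257 in all 8 chemicals, from -0.96 with trichostatin A to 0.25 with apicidin, and the lowest adjusted edgeR p was 0.0614 (tacedinaline, -0.41 ± 0.18). The call of SNAI2_24257 with vorinostat (-0.82) therefore stands beside -0.33 ± 0.18 (adjusted p = 0.13) on the other probe. At vorinostat C4 the order was the other way, and SNAI2_6603 rose by 0.60 ± 0.18 (adjusted p = 0.00749). Over the 118 libraries the ratio of SNAI2_24257 to SNAI2_6603 counts had a median of 0.871 and ran from 0.631 to 10.0. Without the libraries of unequal probes, SNAI2_6603 passed the call rule as a fall with mocetinostat (-0.74, adjusted p = 0.0105). Those libraries were picked by the counts of this probe itself, 42, 41 and 72 in the mocetinostat ones, so this call is no independent support for the other probe. Without batch 2 SNAI2_6603 fell with tacedinaline (-0.65, adjusted p = 0.0295).

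**Figure D2:**
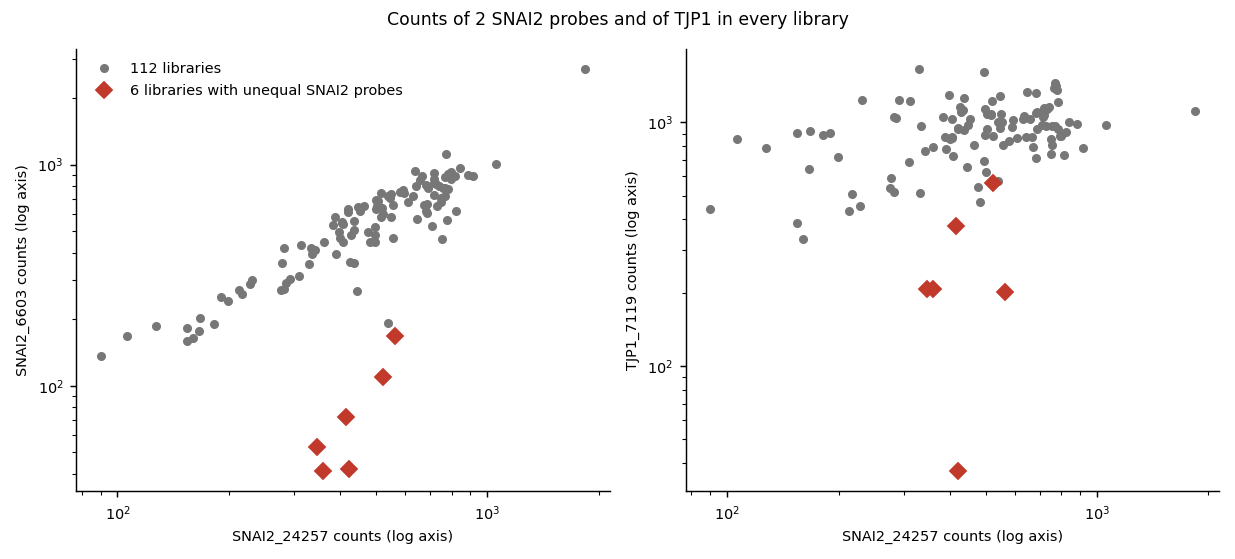
Counts of SNAI2_24257 (x axes) against SNAI2_6603 (left, y axis) and against TJP1_7119 (right, y axis), all on log axes, with a symbol for each of the 118 libraries. The 6 libraries with SNAI2 probes that differ by more than 3-fold are the diamonds on the left, below the other libraries of like SNAI2_24257 counts, with 37 to 564 TJP1 counts on the right, and trichostatin A C1 batch 3 lies at the upper right on both SNAI2 probes.

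TWIST1 is a basic helix-loop-helix factor of mesoderm that represses E-cadherin. Its probe TWIST1_7416 fell at C5 in 5 chemicals by 1.79- to 2.74-fold and was lower in mean in all 8. With mocetinostat it went from 42.8, 81.7 and 89.9 CPM to 16.4, 28.1 and 30.0 CPM (log2 change -1.45 ± 0.40, edgeR adjusted p = 0.0106), and with apicidin from 69.4, 59.8 and 86.2 CPM to 33.4, 40.1 and 35.2 CPM (-0.98 ± 0.23, adjusted p = 0.00299). With vorinostat it went from 64.8, 70.3 and 61.9 CPM to 22.1, 37.1 and 38.6 CPM (-0.89 ± 0.24, adjusted p = 0.00285). The C5 libraries lay below all C1 libraries in each.
The other falls were those of panobinostat, from 70.2, 57.0 and 96.0 CPM to 42.2, 31.0 and 45.1 CPM (-0.93 ± 0.25, edgeR adjusted p = 0.0134), and tacedinaline, from 42.5, 56.4 and 75.7 CPM to 39.0, 22.1 and 35.1 CPM (-0.84 ± 0.26, adjusted p = 0.00878). Scriptaid went from 46.4, 62.3 and 76.1 CPM to 40.8, 26.1 and 12.6 CPM (-1.17 ± 0.46, adjusted p = 0.0658), and passed without C4 batch 3, where TWIST1_7416 stood at 264 CPM (-1.18, adjusted p = 0.00835). The scriptaid C4 libraries had 157, 65.0 and 264 CPM, so the level at C4 lay above that at C5 in every batch.
The adjusted edgeR p passed 0.05 without batch 3 for apicidin (log2 change -0.82, 0.0541), without batch 2 for mocetinostat (-1.45, 0.122) and tacedinaline (-0.66, 0.128), without batch 3 for tacedinaline (-0.70, 0.0848), and without batch 1 or 3 for panobinostat (-1.02, 0.0811, and -0.80, 0.156).

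The second probe, TWIST1_20872, was a weak one, with 2 to 45 counts per library. It was called in no chemical at C5, where its changes ran from -1.34 to 0.33. Over all 5 concentrations it fell with tacedinaline (fitted log2 change from C1 to C5 -1.78 ± 0.51, edgeR adjusted p = 0.00546) and valproic acid (-1.24 ± 0.40, adjusted p = 0.034), the latter lost without any 1 batch (adjusted p = 0.0976 to 0.272). Its counts at or below 45 leave wide intervals, such as -2.28 to 0.51 with vorinostat.

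**Figure D3:**
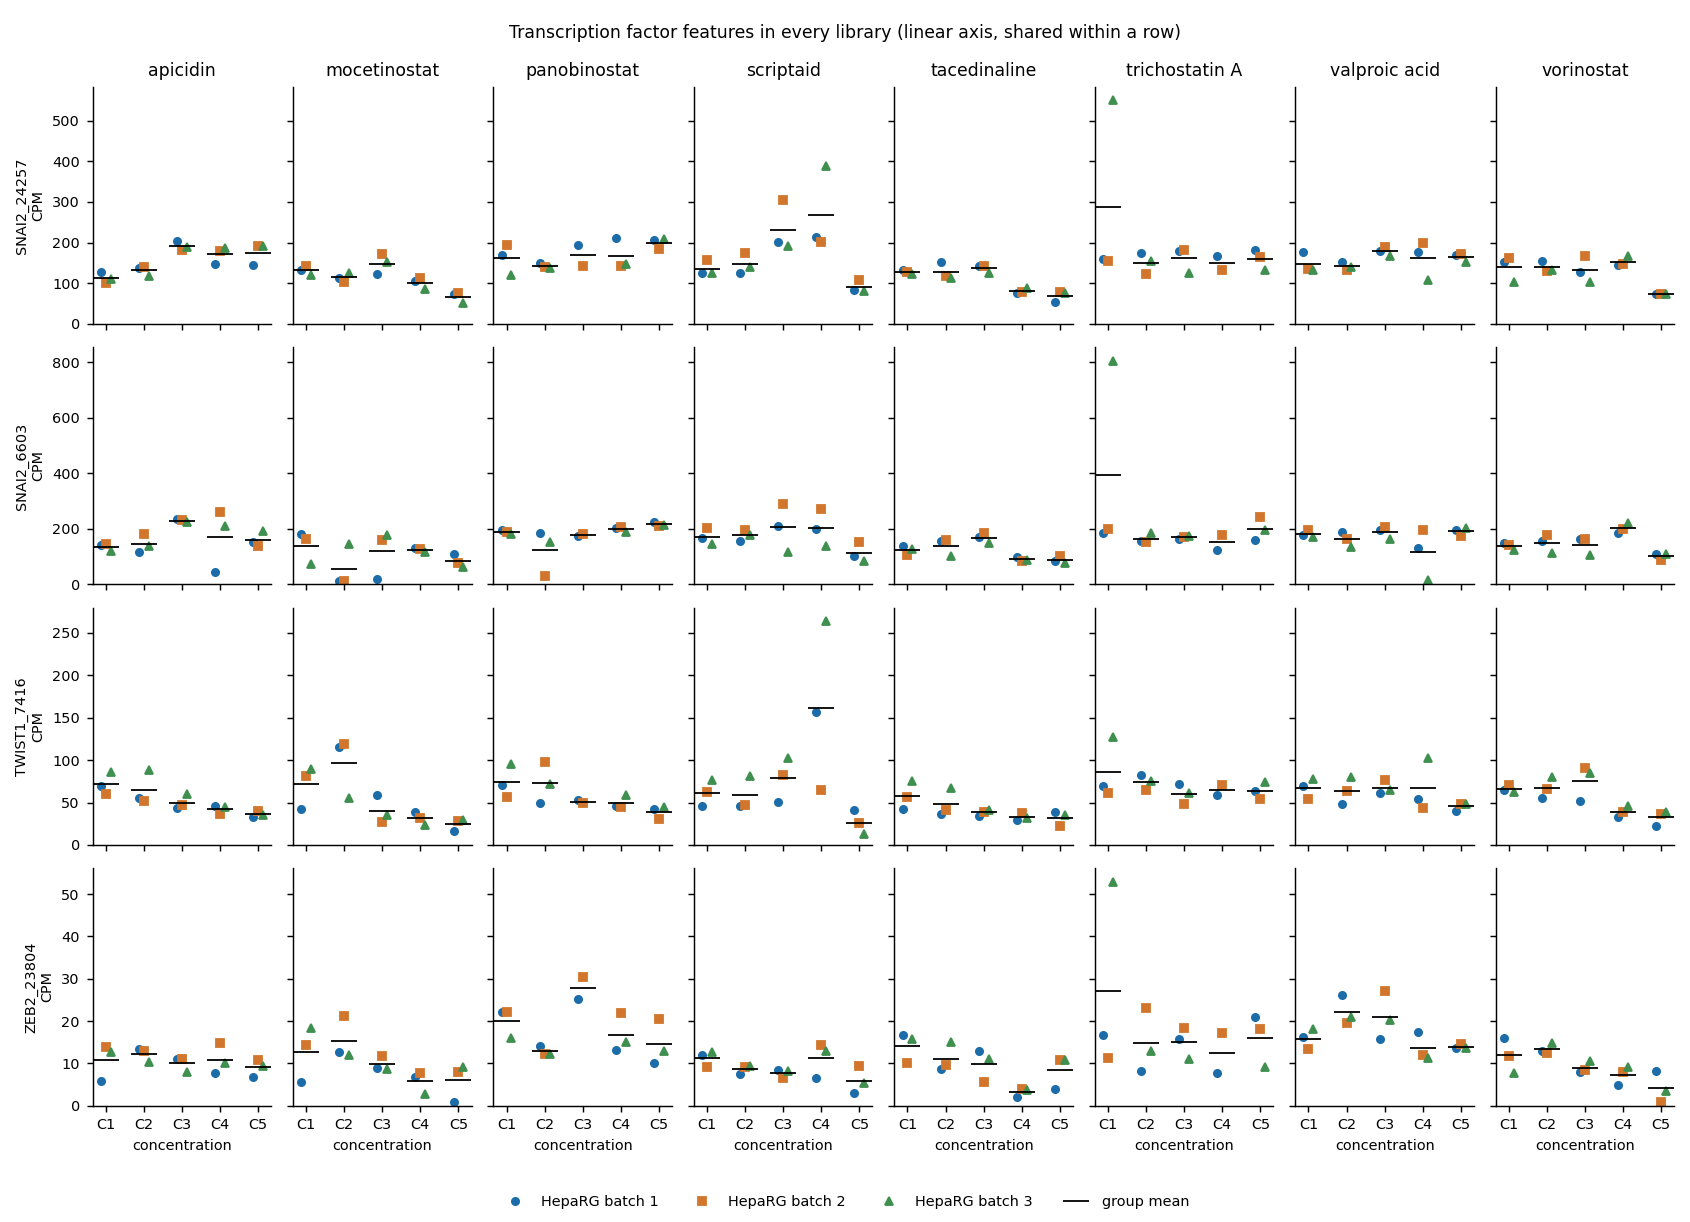
Level in CPM on linear axes (y axis, shared within a row) of the transcription factor probes SNAI2_24257, SNAI2_6603, TWIST1_7416 and ZEB2_23804 at C1 to C5 (x axis) in each chemical, with a symbol for each library by HepaRG batch and a line at the group mean. TWIST1_7416 is lower at C5 than at C1 in mean in every panel, mean SNAI2_24257 is higher with apicidin, panobinostat and valproic acid and lower with the other chemicals, and the highest SNAI2 and ZEB2 values are those of trichostatin A C1 batch 3.

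ZEB2 and ZEB1 are zinc finger homeobox repressors of E-cadherin. ZEB2_23804 had 2 to 177 counts and fell at C5 with vorinostat, from 16.1, 11.8 and 7.78 CPM to 8.18, 0.951 and 3.51 CPM (log2 change -1.49 ± 0.57, edgeR adjusted p = 0.0273). The groups overlapped, and the call was lost without batch 2 (-0.93, adjusted p = 0.269) or batch 3 (-1.68, adjusted p = 0.0529). With tacedinaline ZEB2 fell at C4, to 1.99, 3.86 and 3.68 CPM from 16.7, 10.0 and 15.7 CPM at C1 (-2.07 ± 0.51, adjusted p = 0.00114), and at C5 stood at 4.00, 10.7 and 10.7 CPM (-0.64 ± 0.47, adjusted p = 0.288). Its C5 change was negative in all 8 chemicals, from -1.49 to -0.20. The sign with trichostatin A (-0.71) rested on C1 batch 3, and without that library the change was 0.21 (edgeR adjusted p = 0.895). The highest ZEB2 level, 52.9 CPM, was that of trichostatin A C1 batch 3. ZEB1_7834 had at most 12 counts and was at 0 in 69 libraries, so that no change of ZEB1 was detectable at this depth.

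SNAI1, or Snail, is the best known repressor of E-cadherin. Its probe SNAI1_24734 was at 0 in 49 libraries and had at most 37 counts, and SNAI1_6602 was at 0 in 108 libraries. Only mocetinostat had enough counts for a test: the SNAI1_24734 counts were 17, 5 and 0 at C1 and 37, 20 and 11 at C5, which overlap (1.87 ± 2.32 and 6.06 ± 3.23 CPM, SD, n = 3). The log2 change was 1.76 ± 0.90 (edgeR adjusted p = 0.158). The highest SNAI1 counts outside mocetinostat were 14, 36 and 5 at tacedinaline C4 and 15, 5 and 12 at scriptaid C5.

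VIM encodes vimentin, the intermediate filament protein of mesenchymal cells. Both of its probes lay near 0: VIM_18185 had a median of 3 counts and at most 21, and VIM_7657 a median of 0 and at most 12. VIM_18185 was tested with mocetinostat (log2 change 0.05 ± 1.14, edgeR adjusted p = 0.982) and panobinostat (2.59 ± 1.31, adjusted p = 0.192), where the counts were 0, 1 and 2 at C1 and 1, 13 and 6 at C5. A change of vimentin was thus not detectable at this depth, and whether the low counts reflect the transcript or these probes was not tested.

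The trend over all 5 concentrations, a slope on log2 concentration given as the fitted change from C1 to C5, called 27 of the 75 member tests. Of 9 tested probes 5 were called with apicidin, where 34.4% of all features were, 7 with tacedinaline (43.3%) and 5 with vorinostat (47.4%). With mocetinostat 4 of 11 were called (35.6%) and with panobinostat 4 of 10 (17.4%). Scriptaid gave 1 of 9 (13%), valproic acid 1 of 9 (14.9%) and trichostatin A 0 of 9, where 0.0616% of all features were called and CDH2_25558, SNAI2_24257 and SNAI2_6603 had an unadjusted p under 0.05. OCLN fell by trend in 6 chemicals, among them tacedinaline (-0.64 ± 0.22, edgeR adjusted p = 0.0184), which had not passed at C5 and was lost without batch 1 (-0.36, adjusted p = 0.293), and not valproic acid (-0.56 ± 0.21, adjusted p = 0.0727).
CDH1 fell by trend with apicidin, mocetinostat, panobinostat, tacedinaline and vorinostat (-1.33 to -2.86), and CDH2 rose with the same 5 chemicals (0.74 to 1.14). The panobinostat fall of CDH1 (-1.33 ± 0.46, edgeR adjusted p = 0.0451) passed only by a small margin and was lost without any 1 batch (adjusted p = 0.0859 to 0.182) and without C2 batch 2 (adjusted p = 0.0589). Without scriptaid C4 batch 3 CDH1 fell by trend with scriptaid too (-1.74, adjusted p = 0.00125).

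The first member calls came at C3, where calls over the whole table also became more frequent. At C2 none of the 75 member tests passed in edgeR, where 0.0865% of all tests over the 8 chemicals did, with 8 at an unadjusted p under 0.05 and a lowest adjusted p of 0.158 (CDH2 with mocetinostat). At C3, 7 of the 75 tests were called, against 5.98% of all 101732 tests: CDH1, CDH2, OCLN and SNAI2_24257 with apicidin, CDH2 with mocetinostat and tacedinaline, and OCLN with vorinostat. The apicidin fall of CDH1 was larger at C3 (2.92, 6.31 and 2.36 CPM, log2 change -2.38 ± 0.41, edgeR adjusted p = 0.000414) than at C5 (-1.63 ± 0.39). The difference between those concentrations was not tested.

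A joint model of the 118 libraries asked whether the C5 change was equal across the 8 chemicals. Such unequal change was found for 30.3% of 15632 features (edgeR F test, adjusted p under 0.05), and among the members for SNAI2_24257 (adjusted p = 6.44e-06), CDH2 (0.00328), CDH1 (0.00746) and VIM_7657 (0.0466). VIM_7657 had at most 12 counts, so this last value rests on a few reads. Without trichostatin A only SNAI2_24257 (2.37e-07) and CDH2 (0.00693) remained, and CDH1 was at 0.0736. OCLN (0.0986), TWIST1_7416 (0.495) and TJP1 (0.888) did not pass, which does not show that their changes were alike.

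Set side by side by structure, the hydroxamic acids spanned the whole range of CDH1 changes, -3.30 with vorinostat, -1.92 with scriptaid, -1.16 with panobinostat and 0.08 with trichostatin A. Without C1 batch 3 the trichostatin A change was -0.24 (edgeR adjusted p = 0.886), and the range then ended with valproic acid. The 2 benzamides had CDH1 changes of -2.13 and -2.02 and SNAI2_24257 changes of -0.91 and -0.82. Apicidin was the chemical in which SNAI2_24257 rose, and valproic acid had a CDH1 change near 0 (-0.22 ± 0.35) beside calls on CDH2 and OCLN. As the concentrations were not matched, these values were not compared.

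The HepaRG batches differed little in member levels. With the group in the model, 2.76% of 15632 features differed in level between the batches, and among the members only TWIST1_7416 did, at 0.31 higher in batch 3 than in batch 1 in log2 (edgeR adjusted p = 0.0232). In the C1 libraries alone the difference was 0.53 (adjusted p = 0.153). The slope on concentration did not differ between batches for any member or any other feature after adjustment (59 to 1280 features per chemical at an unadjusted p under 0.05). Of the members SNAI2_24257, SNAI2_6603 and ZEB2 were among the latter, all with trichostatin A, where batch 3 held the library with high values of all of them at C1.

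Other junction genes had both falls and rises. Of 116 tests of 21 junction genes at C5, 28 fell and 2 rose, where 13.4% and 11.6% of all tests did. CTNND1_27079, the p120 catenin that holds cadherins at the membrane, fell in 7 of 8 chemicals (-1.20 to -3.23 in log2), and the desmosomal cadherin DSC2_24007 in 6. The tight junction gene CLDN1_15316 fell in 4, scriptaid, vorinostat and both benzamides (-1.45 to -2.13), and had positive changes in the other 4 that did not pass. DSP_21266, desmoplakin, fell in 3.

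Of 30 tests of epithelial splicing and transcription factors 15 fell (50%), 2 rose (6.67%) and the others were not called. Over all features 13.4% of tests fell and 11.6% rose. HNF4A_28261, the nuclear receptor that maintains hepatocyte identity, fell in 6 chemicals, for instance by 4.52 ± 0.66 with tacedinaline (23.3 to 0.96 CPM in mean, edgeR adjusted p = 3.22e-07). FOXA1_22204 fell in 6 and FOXA2_11651 in 3. ELF3_23726 rose in 2 of the 5 chemicals in which it was tested, from at most 6 counts at C1 with apicidin and at most 1 with tacedinaline. Of other transition factors 4 of 25 tests fell (16%) and 2 rose (8%), near the shares over all features. LEF1_14627 fell in 3 chemicals. With mocetinostat TCF4_15698 fell, to at most 3 counts at C5, and TWIST2_28029 rose (1.37 ± 0.32, edgeR adjusted p = 0.00395). SNAI3_24036 also rose with mocetinostat (3.82 ± 1.07, edgeR adjusted p = 0.0125), but it had at most 3 counts at C1 and was tested in only 2 chemicals.
Corepressors of Snail and ZEB factors had 16 falls (28.1%) and 4 rises (7.02%) in 57 tests. AJUBA_26334, a LIM protein that bridges Snail to its cofactors, fell in 7 chemicals, its second probe AJUBA_26815 in 5 and CTBP1_18247 in 4. SIN3A_13504, the scaffold of a histone deacetylase complex, made up all 4 rises.

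Of 126 tests of mesenchymal genes 33 fell (26.2%), 9 rose (7.14%) and the others were not called. Over all features 13.4% of tests fell and 11.6% rose. MMP14_15865, a membrane-bound collagenase, fell in 7 chemicals (-3.81 ± 0.37 with mocetinostat, edgeR adjusted p = 1.22e-06), SPARC_24939 in 5 and MMP2_27519 in 3, while S100A4_6083 rose in 2 and fell in 1. Transforming growth factor beta signalling, a known inducer of the transition, had 18 falls (20%) and 8 rises (8.89%) in 90 tests. LTBP1_13100, which stores the latent ligand in the matrix, made up 5 of the rises. TGFB2_25683 rose with apicidin (1.54 ± 0.26, adjusted p = 0.000101) and fell in 3 chemicals, and the receptor TGFBR2_7065 fell in 4. SMAD3_27880, a transducer of the signal, fell in 3 chemicals and rose in 1.

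**Figure D4:**
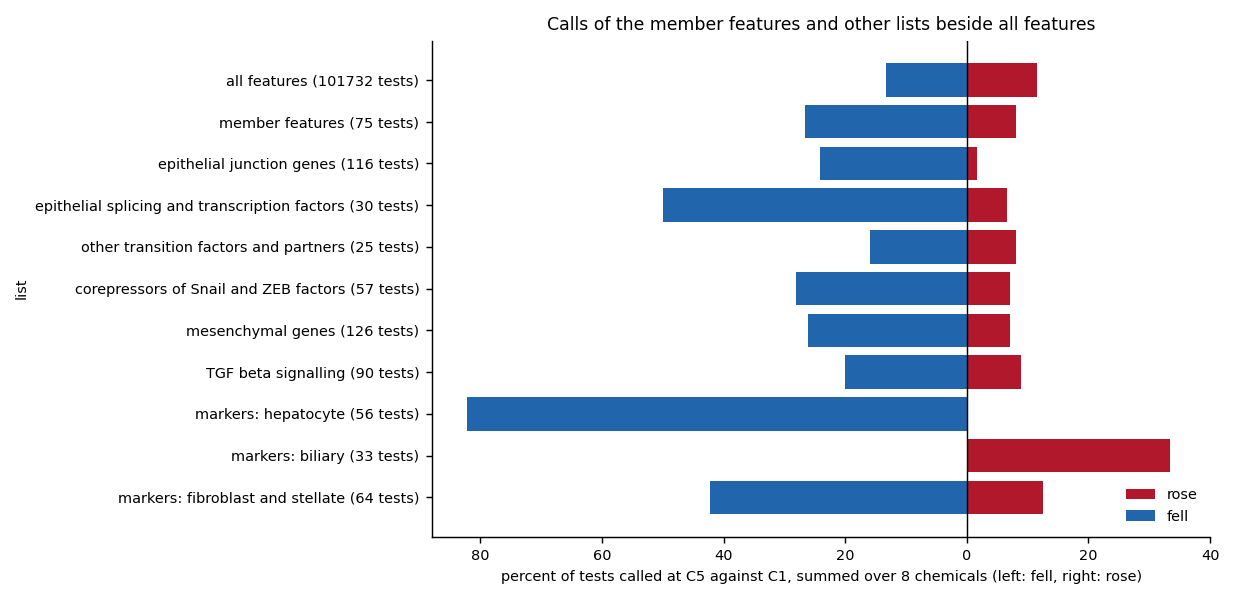
Percent of tests at C5 against C1, summed over the 8 chemicals, that fell (bars left of 0) or rose (bars right of 0) for all features, the member probes, the other gene lists and the marker lists with over 2 tests. All features stand at 13.4% and 11.6%, the members at 26.7% and 8%, and the hepatocyte markers at 82.1% and 0%.

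Markers of cell types also changed between C1 and C5. The summed level of the 7 hepatocyte probes fell in the 7 chemicals other than trichostatin A. Group means there went from 35642 to 49534 CPM at C1 to 3567 to 22696 CPM at C5. With trichostatin A the mean was 35249 CPM at C1 and 37224 CPM at C5. That C1 mean includes the library with the low hepatocyte sum, at 11882 CPM, while the highest C1 library stood at 49085 CPM. The C5 libraries ran from 32914 to 41237 CPM, so these means do not show that the sum was unchanged. The change of the sum without the low library was not tested. Of 56 hepatocyte tests 46 fell (82.1%) and none rose, where 13.4% of all tests fell and 11.6% rose. Both CYP3A4 probes, TF_15172 and ALB_217 fell in 7 chemicals each. In these bulk lysates fewer cells of a type and less RNA per cell cannot be told apart. The biliary sum went from 69.0 to 119 CPM at C1 to 88.6 to 212 CPM at C5. SPP1_6720 and SOX9_22075 rose in 5 chemicals each and KRT19_3690 in 1, 11 rises in 33 tests (33.3%) and no fall.
The fibroblast and stellate sum went from 203 to 281 CPM to 111 to 220 CPM, with 27 falls (42.2%) and 8 rises (12.5%) in 64 tests. COL3A1_28516 and ACTA2_14836 fell in 7 chemicals each and DCN_27098 in 6, whereas COL1A1_1466 rose in 6. The summed endothelial level was at most 16.7 CPM in a C1 or C5 library and that of blood cells at most 3.59 CPM, and PTPRC stood at 0. The part of any of these cell types in the changes of CDH1, CDH2, OCLN, SNAI2 and TWIST1 was not tested.

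Over the 40 group means, each centred on the mean of its chemical, CDH1 ran with OCLN (Pearson r = 0.744), ZEB2 (0.719) and TWIST1_7416 (0.710), and OCLN against CDH2 (-0.782). CDH1 and CDH2 had r = -0.428, and the 2 SNAI2 probes 0.483. These coefficients are descriptions over groups that share libraries and chemicals. Among 11288 features the patterns most like that of CDH1 were LRP1_21937 (0.932), KATNAL2_91400 (0.927) and SLC25A20_16820 (0.927). Those most like OCLN included CYP7A1, the rate-limiting enzyme of bile acid synthesis (0.895), and those most like SNAI2_24257 were led by HSPB8 (0.887) and TGFB2_25683 (0.860). For CDH2 they were led by MFSD6 (0.913), for TWIST1_7416 by URGCP-MRPS24 (0.930) and RUNX2 (0.927), for TJP1 by METTL14 (0.943), for ZEB2 by ZFHX3 (0.841), for SNAI2_6603 by USP33 (0.891) and for TWIST1_20872 by SGMS2 (0.785).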

How the data were processed

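The authors deposited raw, unnormalised whole-number counts of each probe for 118 TempO-Seq libraries, in which pairs of probes are ligated on their target RNA, amplified and sequenced. The submitters' processing notes name bcl2fastq 2.20.422, fastp 0.23.2, STAR 2.7.10b and DESeq2 1.38.0. The genome build is not given in the sources used here. A row (SEC13) lacked values in 88 libraries and was left out. Rows were matched to the 10 genes by symbol, and groups were taken from the chemical, concentration and replicate labels.

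In R 4.3.3 each chemical was fitted with edgeR 4.0.16 (filterByExpr, TMM, quasi-likelihood F test, Benjamini-Hochberg adjustment over all features tested). C2 to C5 were compared with C1, and a slope on log2 concentration was tested as the trend. A probe was called where the adjusted p-value lay under 0.05 and the fold change reached 1.5. Errors of log2 changes are standard errors from F, and intervals are 95% normal intervals from them. Levels are CPM with TMM factors over all 118 libraries. The correlations used log2 CPM with a prior count of 2, and the plots of levels show CPM. Further models of all libraries tested unequal C5 changes between chemicals and levels between HepaRG batches. The code was tested on simulated data. Reads carry no molecular identifiers, so limits from a count of 0 cover counting error only.

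The paper listed for the series reports a different experiment and gave no value or group here. The genes, the other gene lists and the rules were chosen with earlier results of these data known. All member probes are named. From each other list up to 4 probes called at C5 in the most chemicals were named with their calls, ties going to the larger median absolute change, and for each member tested in all chemicals some of the 3 probes with the most similar group means. Plates E (scriptaid, tacedinaline and vorinostat) and H (the others) hold different chemicals, so plate and chemical cannot be told apart between chemicals. The labels name a HepaRG batch for each replicate number, the same one in every group, so the numbers pair the samples. Batches are numbered here by replicate. The correlation of deviations from the group means had a median of 0.0231 in 232 pairs of the same batch and -0.0109 in 464 pairs of different batches. Alternatives were DESeq2 1.42.0, RLE factors, no filter, a replicate block, a slope on the level number and leaving out libraries.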

Additional observations from a re-analysis of the deposited data

Results flagged for a closer look

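The C5 against C1 change differed between the 8 chemicals, by an F test in the edgeR model of all 118 libraries, for 4 member probes. For SNAI2_24257 (adjusted p = 6.44e-06) the change was positive with apicidin and negative with mocetinostat, tacedinaline and vorinostat, each with a call. For CDH2_25558 (adjusted p = 0.00328) it ran from -0.30 with scriptaid to 1.10 with apicidin. For CDH1_1186 (adjusted p = 0.00746) it ran from -3.30 with vorinostat to 0.08 with trichostatin A, and without trichostatin A the adjusted p was 0.0736. In the fit of trichostatin A alone the CDH1 change was -0.24 without C1 batch 3. For VIM_7657 (adjusted p = 0.0466) at most 12 counts per library lie behind the test, and without trichostatin A the adjusted p was 0.210. The tests compare the ranges of concentration as used and not matched doses.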

How the results depend on the processing

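No change of a member probe reversed its sign past a threshold under any alternative that was run. Of 150 single changes, at C5 and by trend, RLE factors and the replicate block changed no call, DESeq2 added 2 and the analysis without a filter added 5 and removed 1. The blocked fit also left the number of unequal changes between chemicals at 4. Leaving out batches 1, 2 and 3 in turn removed 16, 18 and 16 of the calls and added 5, 3 and 2, with fewer libraries in each fit. RLE factors moved the median log2 change of all features by -0.0626 to 0.0161. The alternatives without libraries of unequal SNAI2 probes, and without scriptaid C4 replicate 3, were chosen after seeing the data. The first added 9 calls and removed 1 of 78, and the second added 2 of 18. Leaving out trichostatin A C1 replicate 3 changed none of 18.

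The counts of called member probes moved as follows, and beyond the number of libraries the cause was not tested. Over the 3 fits that leave out 1 batch each, the count at C5 was 3 to 5 for apicidin, 0 to 4 for mocetinostat, 1 to 4 for panobinostat, 0 to 2 for scriptaid and 0 for valproic acid in all 3. By trend it was 2 to 5 for mocetinostat, 2 to 3 for panobinostat, 0 to 2 for scriptaid, 0 to 1 for valproic acid, 2 to 5 for vorinostat and 5 to 7 for apicidin. Without a filter the counts were 2 at C5 for trichostatin A (SNAI2_6603, -0.97, and SNAI2_24257, -0.83), 2 by trend for scriptaid and 0 by trend for valproic acid. By trend, valproic acid had 3 with the level number in place of the concentration and 2 without libraries of unequal SNAI2 probes, and scriptaid had 2 without C4 replicate 3. The number of unequal changes between chemicals was 2 without trichostatin A, and the number of levels that differ between batches was 0 in the C1 libraries alone. Low counts, whose cause was not tested, limit the results of the VIM, SNAI1 and ZEB1 probes and of CDH1 at vorinostat C5.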
